A study of Mus musculus with 3 samples.

Results

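Lung mesenchymal stromal cells (LMSCs) cultured from MMTV-PyMT mice at the metastatic stage (M-LMSC) were compared with those from the pre-metastatic stage (PM-LMSC) by RNA-seq. In MMTV-PyMT mice, kept on the FVB background, the mouse mammary tumor virus promoter drives the polyoma middle T antigen in mammary epithelium, and the mammary tumours that follow spread to the lung. PM-LMSC came from mice of 11 weeks, before lung metastasis, and M-LMSC from mice of 13 weeks. A further library, A-LMSC, came from the adenoma stage at 7 weeks and serves here as a reference level. All groups carried the transgene, received no treatment and were grown from digested lung as adherent cells, depleted of CD45+ leukocytes with magnetic beads and expanded in serum through passages in vitro. Each stage was 1 library, counted as 1 mouse in the sources used here, and age and stage cannot be told apart. No difference therefore had a replicate check, no p-value is given, and all intervals cover counting error only.

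The genes compared were those with at least 20 CPM (counts relative to the library total, scaled by TMM factors that allow for a few abundant genes) in either library. Of 34742 genes, 7371 met this minimum, and 7243 of these were protein-coding. In both libraries 5761 genes reached it, while 1027 did so in M-LMSC alone and 583 in PM-LMSC alone. The ratio is that of M-LMSC to PM-LMSC as log2(CPM + 1), so a positive value means a higher level in M-LMSC. Because a gene enters through its higher library, genes near the minimum that entered through 1 library had to differ. Asb5 was just inside, with 5.5 CPM in PM-LMSC and 20.016 in M-LMSC, and Trex1 was just outside, with 19.998 and 1.9 CPM.

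Stromal cells build the matrix of the lung. They secrete fibrillar collagens and fibronectin, hold on to them through integrins, trim them with proteases, and signal to blood cells through chemokines and cytokines. When tumours spread, this stroma is held to prepare the ground for arriving cancer cells, and activated fibroblasts that contract and deposit matrix are its best known form. Epithelial tumour cells, by contrast, carry keratins, E-cadherin and claudins.

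The libraries held 12594155 counts in PM-LMSC and 14338909 in M-LMSC, with 16386 and 17085 genes detected, and the compared genes took 96.6% and 95.2% of the counts. A floor of 3 counts stood at 0.234 and 0.174 CPM. In bulk RNA, fewer cells of a type and less RNA per cell cannot be told apart. Both libraries held transcripts for the surface markers named for LMSCs, among them Itgb1 (CD29) at 1846 CPM in PM-LMSC against 2074 in M-LMSC, and Nes (Nestin) at 966 against 362. The following markers absent by flow cytometry had low counts, since the leukocyte gene Ptprc (CD45) had 3 and 9 counts, the endothelial gene Pecam1 (CD31) 17 and 5, and the myeloid gene Itgam (CD11b) 48 and 72. Cd34 was well above the floor, with 441 counts in PM-LMSC and 692 in M-LMSC. Y-linked genes had no counts, and the X-linked Xist had 98 counts in PM-LMSC and 1171 in M-LMSC.

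Relative to PM-LMSC, 961 genes (13.0%) were higher in M-LMSC by 2-fold or more, and 649 (8.8%) were lower by as much. The shift was uneven, since 356 genes were higher but only 81 lower by 4-fold or more, and 99 against 15 passed 8-fold. The median log2 ratio of all compared genes was -0.10. With library totals alone it was 0.17, and with the deposited FPKM 0.13, and 1361 or 1004 genes were then higher and 409 or 304 lower. Higher genes were on the whole more weakly expressed than lower ones, as 422 of the 961 and 433 of the 649 reached 50 CPM in either library. Among the 5761 genes that reached 20 CPM in both libraries, 304 (5.28%) were higher and 404 (7.01%) lower. Among the most abundant transcripts of PM-LMSC were Thbs1, Col1a1, Fn1 and Eef1a1, and those of M-LMSC were Eef1a1, mt-Co1, Acta2, Pkm and Thbs1.

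**Figure D1:**
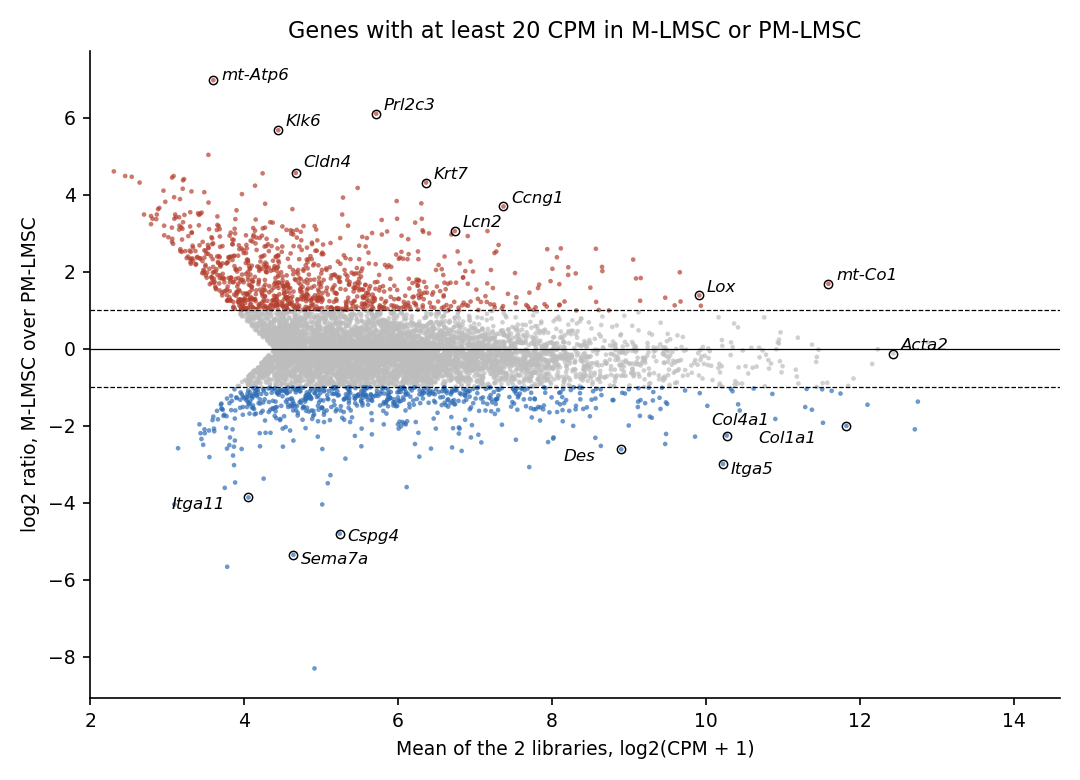
Each point is 1 of the 7371 genes, with the mean of both libraries as log2(CPM + 1) on the horizontal axis and the log2 ratio (M-LMSC over PM-LMSC) on the vertical axis. Red points lie 2-fold or more above (961 genes) and blue points 2-fold or more below (649 genes), with dashed lines at 2-fold. The red points crowd at low levels, whereas Col1a1, Col4a1 and Itga5 lie far to the right among the blue points.

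Many of the highest ratios belonged to genes of epithelia and of secreted hormone-like and protease families. Keratins, which form the intermediate filaments of epithelial cells, were among them. Krt7 stood at 17.4 CPM in PM-LMSC and 367 in M-LMSC, a 21.1-fold difference (95% counting interval 18.5 to 24.2). Its simple-epithelium relatives Krt8 (20.3 and 291 CPM) and Krt18 (15.7 and 238 CPM), which pair with each other in filaments, had log2 ratios of 3.78 and 3.84. Krt14, a keratin of basal and myoepithelial cells, stood at 8.28 and 75.3 CPM. Krt19 was level at 27.4 and 27.2 CPM, with a log2 ratio of -0.01. Thus 4 of the 5 listed keratins that reached the minimum were higher and none lower, with a median log2 ratio of 3.78. However, 3 of the 5 passed the minimum through M-LMSC alone, and of the 2 at 20 CPM in both libraries 1 was higher.

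Junction genes followed. Cldn4, a tight junction claudin, stood at 4.22 CPM in PM-LMSC and 123 in M-LMSC. Dsp, which anchors keratin filaments at desmosomes, stood at 1.72 and 44.8 CPM. Epcam, an epithelial adhesion protein, went from 3.28 to 51.0 CPM and Cdh1, which encodes E-cadherin, from 5.62 to 63.5. Of 13 junction genes, 8 were at least 2-fold higher and 1 lower, with a median of 1.46, and 5 of the 13 reached 20 CPM in both libraries. Tjp1, a scaffold of tight junctions, stood at 5.39 and 54.9 CPM, while Pkp2, a desmosome protein, had a log2 ratio of -0.08, so the members were not uniform.

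The laminin chains and integrin by which epithelia sit on their basement membrane showed the same direction. Lama3 and Lamb3, laminin chains of epithelia, had log2 ratios of 3.48 and 2.83, and Itgb4, the integrin subunit of hemidesmosomes, 2.61. In this list of 9 genes, 6 were higher, none was lower and the median was 1.56. Only 5 of the 9 reached 20 CPM in both libraries, and 2 of these were higher. Among 12 other genes of mammary tumour epithelium, 8 were higher and none lower, with a median of 2.42. They included Wnt7b, a Wnt ligand (2.89 and 90.6 CPM, 31.3-fold, interval 22.6 to 44.7), St14, the membrane protease matriptase (log2 ratio 3.44), and its inhibitor Spint2 (2.97). The receptors Erbb2 and Egfr, at 71.2 and 187 CPM in PM-LMSC, had log2 ratios of -0.75 and -0.17. Of the 12 genes, 5 reached 20 CPM in both libraries and their median was -0.17, so the median of the list rested on genes at low levels in PM-LMSC.

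Of 26 epithelial transcription and splicing factors 24 stayed under the minimum, and 10 of these were at least 2-fold above PM-LMSC in the M-LMSC library on the log2(CPM + 1) scale. Esrp1, an epithelial splicing factor, had 223 counts in M-LMSC against 5 in PM-LMSC and 1 in A-LMSC. Grhl2 and Ehf, epithelial transcription factors, had 3 and 6 counts in PM-LMSC and 134 and 221 in M-LMSC. Elf5, a regulator of milk-producing cells, had 0 and 36 counts. Others were level, with Klf5 at 149 and 140 counts and Rbm47 at 91 and 86, and Sox9, which reached the minimum, was lower at 50.2 and 13.3 CPM. Of the 15 keratins listed 14 were detected in each of the PM-LMSC and M-LMSC libraries, and their levels summed to 1043 CPM in M-LMSC, against 113 in PM-LMSC and 54.3 in A-LMSC. Krt15 was at 0 in PM-LMSC and Krt13 in M-LMSC. The 32 junction genes summed to 297, 560 and 1034 CPM, with 28 detected in PM-LMSC and 31 in M-LMSC. Whether cells of another type in the cultures had a part in these differences was not tested.

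Of 18 lung epithelial markers 15 stayed under the minimum. Sftpc, the surfactant protein of alveolar type II cells, had 29 counts in M-LMSC and 0 in PM-LMSC, against 969 in A-LMSC, and the whole list summed to 155 CPM in PM-LMSC and 174 in M-LMSC. Most of that sum came from Abca3, a lipid transporter (84.7 and 106 CPM), and Etv5, a transcription factor (57.9 and 29.1 CPM). Sftpd had 1 and 36 counts, Foxj1, a factor of ciliated cells, 3 and 95, and the water channel Aqp5 stood at 9.14 and 24.5 CPM. Endothelial genes summed to 505 and 535 CPM, mostly from Pdpn (330 and 387 CPM) and Eng (99.6 and 122 CPM), the latter also listed as mesenchymal. Esam, which reached the minimum too, was lower at 23.5 and 3.83 CPM. Of 17 genes under the minimum 4 were at least 2-fold lower and 1 higher, with the defining Cdh5 at 61 and 12 counts. Leukocyte genes summed to 399 and 266 CPM, and 3 of the 5 that reached the minimum were lower in M-LMSC, among them the macrophage genes Csf1r and Lyz2 (244 and 99 CPM). Only S100a8, an alarmin of neutrophils, was higher among those 5, at 9.53 and 52.4 CPM. Of the mesothelial genes, Msln stood at 10.5 and 74.5 CPM, while Wt1, Upk1b and Igfbp6 were lower.

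Kallikreins and milk proteins, which epithelia secrete, were also among the highest ratios. Klk6, a kallikrein-related serine protease, stood at 2.03 CPM in PM-LMSC and 155 in M-LMSC (76.2-fold, interval 51.9 to 117). Klk10 (0.781 and 39.2 CPM) and Klk8 (18.7 and 203 CPM) lie with it in the kallikrein cluster on chromosome 7, and these 3 were the kallikreins that reached the minimum, each through M-LMSC alone. A-LMSC held no count of Klk6 but 55.6 CPM of Klk8, between the later stages. The casein gene Csn1s1 had 2 counts in PM-LMSC and 430 in M-LMSC, and Csn3 had 0 and 253, while Csn2 had none in either. Ltf and Lcn2, iron-binding secreted proteins of epithelia and neutrophils, stood at 16.3 and 175 CPM and at 35.9 and 307 CPM. Saa3, an acute-phase serum amyloid also made by mammary epithelium, was lower instead, at 2416 and 797 CPM. The secretory list of 8 members thus had 3 higher, 1 lower and a median of 0.41, which was -0.22 over the members that reached 20 CPM in both libraries.

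The proliferins, prolactin-like hormones of placenta and of growing cultured mouse cells, held the highest ratio of a nuclear gene. Prl2c3 (ENSMUSG00000056457, chromosome 13, 12790822 to 12800078 on mm10) had 7508 counts in M-LMSC, 68 in PM-LMSC and 1 in A-LMSC. This is 5.31 against 436 CPM, or 82.0-fold (interval 64.6 to 106). Prl2c2 stood at 28.9 and 238 CPM, Prl2c5 at 2.27 and 28.5, and Prl2a1 had 3 and 453 counts. Of these 4 genes only Prl2c2 reached 20 CPM in both libraries, and the others passed the minimum through M-LMSC alone. These genes are near copies. Of the 50-base windows of the Prl2c3 transcript, 78.6% also occur in Prl2c2 and 11.5% in Prl2c5, so reads could have been split between them. Their sum is not affected by such splitting, and stood at 702 CPM in M-LMSC, 36.5 in PM-LMSC and 27.1 in A-LMSC, a log2 ratio of 4.23 between the later stages. Prl2a1 shared no such window with Prl2c3.

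The likeness extends upstream of the genes. The 250 bases before the RefSeq start sites of Prl2c3 (chr13:12800080-12800329, minus strand) and Prl2c5 (chr13:13182466-13182715, plus strand, both GRCm38.p6) are shown here because both genes were higher in M-LMSC. They read 5′ to 3′, with capitals marking bases that differ in the alignment.
Prl2c3: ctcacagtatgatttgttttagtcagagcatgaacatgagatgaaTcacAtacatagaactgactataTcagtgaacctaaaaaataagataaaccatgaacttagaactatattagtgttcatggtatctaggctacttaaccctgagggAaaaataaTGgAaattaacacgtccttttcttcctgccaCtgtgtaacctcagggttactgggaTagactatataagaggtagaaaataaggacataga
Prl2c5: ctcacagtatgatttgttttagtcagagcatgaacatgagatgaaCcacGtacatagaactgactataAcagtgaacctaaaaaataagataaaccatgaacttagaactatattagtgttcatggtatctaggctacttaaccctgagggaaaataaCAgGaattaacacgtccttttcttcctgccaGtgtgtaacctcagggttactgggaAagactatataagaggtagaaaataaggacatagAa
Of 251 aligned positions 241 were identical, 8 were mismatches and 2 were gaps.

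**Figure D2:**
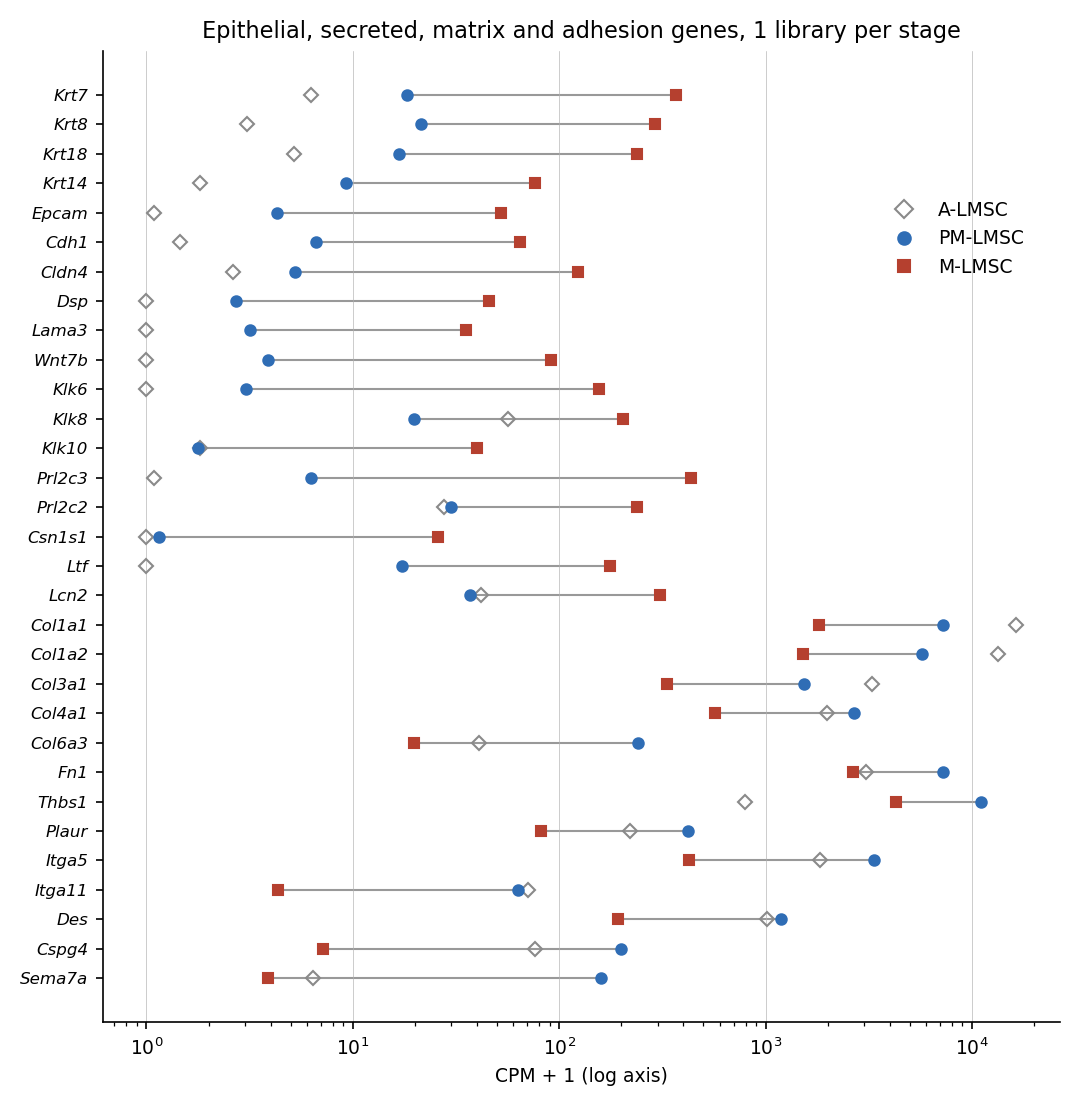
CPM + 1 on a log axis for single genes, with a diamond for A-LMSC, a circle for PM-LMSC and a square for M-LMSC, 1 library each, and a line joining PM-LMSC and M-LMSC. From Krt7 to Lcn2 the squares lie to the right of the circles (Prl2c3 at 5.31 and 436 CPM), and from Col1a1 to Sema7a they lie to the left (Itga5 at 3368 and 423 CPM).

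The matrix made up the other side of the comparison. Collagens had the lowest median of the lists with 5 or more members, at -1.31, with 11 of 19 members at least 2-fold lower in M-LMSC and 3 higher. Col1a1, a chain of the main fibrillar collagen, stood at 7267 CPM in PM-LMSC and 1815 in M-LMSC (log2 interval of the CPM ratio -2.02 to -1.98), and its partner Col1a2 at 5721 and 1511. In A-LMSC these were at 16401 and 13379 CPM. That library also differed in the surface markers named for LMSCs, which summed to 197 CPM against 3362 in PM-LMSC and 2889 in M-LMSC. A steady decline over the stages therefore cannot be read from these levels. Col4a1 and Col4a2, the paired chains of basement membrane collagen, stood at 2690 and 566 CPM and at 2049 and 420, and Col3a1 at 1536 and 332. Col6a3, a chain of the beaded filaments around cells, had the lowest ratio, with 239 against 18.9 CPM (12.6-fold, log2 interval -3.83 to -3.49). Col8a1 (127 and 405 CPM), Col7a1 of epithelial anchoring fibrils (13.5 and 31.0 CPM) and Col18a1 were the higher ones. Summed over the list, collagen transcripts took 9002 CPM in M-LMSC, 26810 in PM-LMSC and 42565 in A-LMSC.

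Among 30 glycoproteins and proteoglycans of the matrix, 11 were lower and 4 higher, with a median of -0.70. After a trend with GC content and length was subtracted, 7 were lower and 2 higher. Thbs1, an activator of latent TGF-beta, stood at 11124 CPM in PM-LMSC and 4297 in M-LMSC, Fn1 (fibronectin) at 7267 and 2653, and Sparc, a collagen-binding protein, at 5142 and 2305. Thbs2 was 1667 and 301. The higher members were the proteoglycans Vcan (10.5 and 129 CPM) and Dcn (25.1 and 187 CPM), the phosphoprotein Spp1 (207 and 628 CPM) and Efemp1 (43.0 and 102 CPM). The enzymes that modify and cross-link collagen leaned the same way in their median, with smaller differences. It was -0.79, with 17 of 20 log2 ratios negative, and -0.54 once the trend was subtracted, against -0.10 over all compared genes. By 2-fold, 5 were lower and 3 higher, against 8.8% and 13.0% of all compared genes. With the trend subtracted 2 were lower and 1 higher, against 683 and 633 of 7366 genes. These last counts are too small to show a lean. Lox, the cross-linking lysyl oxidase, was an exception at 596 and 1559 CPM, while its relative Loxl2 stood at 432 and 181.

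Receptors for this matrix were split. Itga5, the fibronectin receptor subunit, stood at 3368 CPM in PM-LMSC and 423 in M-LMSC, a 7.96-fold difference (log2 interval -3.03 to -2.96), with 1842 in A-LMSC. Itga11, a collagen receptor subunit of fibroblasts, stood at 62.3 and 3.36 CPM, and Itgb3 at 34.1 and 5.05. Itgav, which pairs with several beta subunits to bind fibronectin and vitronectin, stood at 45.3 and 193 CPM, and the common subunit Itgb1 was near level with a log2 ratio of 0.17. Of 13 integrins 5 were higher and 5 lower.

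The plasminogen system, by which cells dissolve fibrin and matrix, was lower in its activators and their receptor. The activators Plau and Plat stood at 322 CPM in PM-LMSC against 81.3 in M-LMSC and at 95.1 and 25.6 CPM, and the receptor Plaur at 418 and 80.6 CPM. The gelatinases Mmp2 and Mmp9, the membrane protease Mmp14 and the inhibitor Timp1 were also at least 2-fold lower. Higher instead were Adamts5, which cleaves versican and aggrecan (23.5 and 255 CPM), Adam10 (15.9 and 90.1 CPM), Mmp8 (11.8 and 51.9 CPM) and Mmp13 (45.3 and 105 CPM). Over all 37 proteases and inhibitors, 12 were lower and 7 higher, with a median of -0.45.

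AP-1, the dimer of Fos and Jun proteins, is a known regulator of several of these proteases. The pattern TGANTCA (N being any base), taken loosely for its motif, was searched on both strands. The window ran from 250 bases before to 50 after each RefSeq start site on GRCm38.p6. The pattern occurs in 8.97% of the 27013 genes with such a window. Of the 37 proteases and inhibitors only 24 had a window, too few for a share to be read, and 7 of these held the motif. The motif is shown in capitals within 41 bases each, because matches to the pattern stand before genes that were higher, level and lower in M-LMSC. Its central base was G or C, but A in Serpinb2.
Mmp3: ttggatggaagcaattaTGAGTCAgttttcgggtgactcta
Mmp10: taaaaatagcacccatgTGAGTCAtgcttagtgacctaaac
Mmp12: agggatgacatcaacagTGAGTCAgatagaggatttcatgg
Mmp13: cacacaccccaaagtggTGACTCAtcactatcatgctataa
Adam19: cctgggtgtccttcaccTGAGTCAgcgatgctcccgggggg
Plaur: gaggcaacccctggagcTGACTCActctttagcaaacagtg
Serpinb2: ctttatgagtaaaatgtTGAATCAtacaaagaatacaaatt
The windows lie on the plus strand at chr9:7445759-7445799 (Mmp3), chr9:7502262-7502302 (Mmp10), chr9:7347313-7347353 (Mmp12), chr9:7272462-7272502 (Mmp13), chr11:46055836-46055876 (Adam19), chr7:24462397-24462437 (Plaur) and chr1:107511312-107511352 (Serpinb2). The log2 ratios of these genes were -0.07 for Mmp3, 0.64 for Mmp10, 0.81 for Mmp12, 1.20 for Mmp13, -1.88 for Adam19, -2.36 for Plaur and -0.99 for Serpinb2. Genes with the motif therefore stood on both sides, and a match is no evidence of binding. Of the AP-1 and immediate early genes themselves 8 of 22 were lower and 3 higher. Fosl1, a Fos relative, stood at 221 and 60.7 CPM and Dusp4, which switches off ERK signalling, at 581 and 114, but Fos stood at 11.6 and 61.6 CPM.

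Contractile genes leaned lower, with 9 of 28 at least 2-fold lower, 1 higher and a median of -0.72. Des (desmin), the muscle intermediate filament, stood at 1181 CPM in PM-LMSC and 192 in M-LMSC (6.15-fold lower, log2 interval -2.68 to -2.57), with 1021 in A-LMSC. Tpm1 (tropomyosin) stood at 2800 and 1240 CPM and Srf, the transcription factor of contractile genes, at 241 and 91.3. Acta2, the smooth muscle actin that marks myofibroblasts, was close to level at 5781 and 5319 CPM, and Myl9 and Actg2 also stayed within 2-fold. Cald1 (caldesmon) was the higher one, at 532 and 1246 CPM.

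Markers of stromal identity did not move as one. Cspg4 (NG2), a proteoglycan of pericytes, stood at 199 CPM in PM-LMSC and 6.15 in M-LMSC, whereas the pericyte receptor Pdgfrb stood at 531 and 292 and Notch3 at 8.05 and 36.0. Vim (vimentin) and Snai1, a repressor of E-cadherin, were lower, at 2253 and 831 CPM and at 96.7 and 31.1. The related repressors Zeb1 and Zeb2 were higher, with Zeb2 at 5.78 and 48.9 CPM, as was Cdh11, a cadherin of fibroblasts, at 57.2 and 235. Over 17 mesenchymal markers 3 were higher, 2 lower and the median was -0.23, which became 0.08 with library totals and 0.01 with FPKM. Of the stated LMSC markers Ly6a (Sca1) stood at 17.3 and 54.8 CPM, Cd44 at 303 and 262, and the platelet-derived growth factor receptor Pdgfra (CD140a) at 230 and 137.

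Guidance and adhesion genes held several of the lowest ratios. Sema7a, a membrane-bound semaphorin that binds integrins, had 2022 counts in PM-LMSC and 50 in M-LMSC, or 158 and 2.90 CPM (54.5-fold lower, log2 interval -6.20 to -5.36). Sema3c, a secreted semaphorin, stood at 36.0 and 288 CPM instead. Vasn, which traps TGF-beta, stood at 604 and 70.9 CPM, and S1pr3, a receptor for sphingosine-1-phosphate, at 113 and 9.11. The protocadherin Pcdhga4 had 1236 and 16 counts and Pcdhgc5 1352 and 238, but these genes of 1 cluster share their 3′ exons, so reads could have been assigned to either.

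Cholesterol and cell cycle genes were also on the lower side. No gene of cholesterol and fatty acid synthesis was at least 2-fold higher, 12 of 27 were lower and the median was -0.95. Cyp51, a demethylase of sterol synthesis, stood at 210 CPM in PM-LMSC and 34.1 in M-LMSC, and Sqle, which oxidises squalene, had a log2 ratio of -1.34. Srebf2, the factor that drives these genes, stood at 231 and 74.9. Of 35 proliferation genes 17 were lower and 3 higher, with a median of -0.93. Of 10 further listed genes under the minimum 7 went the other way, among them Mki67, a marker of cycling cells, at 6 and 166 counts and Smc4, a condensin subunit, at 12 and 176. Plk1, a mitotic kinase, stood at 73.4 and 19.8 CPM and Mcm5, part of the replicative helicase, at 98.0 and 40.3. Top2a, also a gene of dividing cells, went the other way at 8.28 and 48.1 CPM, and the G1 cyclins Ccnd1 and Ccnd2 had log2 ratios of 0.05.

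In the list of p53 targets and senescence genes 8 of 23 were higher and 2 lower, with a median of 0.31. Of the 18 at 20 CPM in both libraries 5 were higher and 2 lower. Ccng1 (cyclin G1) stood at 44.8 and 596 CPM, Trp53inp1 had 13 and 721 counts, Eda2r stood at 7.97 and 55.6 CPM, and Mdm2, which degrades p53, at 121 and 277. Cdkn2a, which encodes the cell cycle inhibitors p16 and p19ARF, stood at 51.8 and 145 CPM, and Lmnb1, a lamin, at 131 and 30.3. Cdkn1a (p21) was within 2-fold at 700 and 895 CPM.

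Secreted signals to leukocytes were mixed. Cxcl5 and Cxcl1, chemokines that draw neutrophils, stood at 29.0 and 164 CPM and at 44.8 and 130, and Csf3 (G-CSF), which expands them, at 13.0 and 36.7. Csf1 (M-CSF), the macrophage growth factor, was lower from a high level, at 4202 and 2027 CPM. Of the 7 genes in this list 4 were higher and 2 lower, but 2 passed the minimum through M-LMSC alone. Among the 5 at 20 CPM in both libraries, 2 were higher and 2 lower. Among other chemokines Ccl20 stood at 2.89 and 62.1 CPM and the monocyte attractant Ccl7 at 136 and 465. Cxcl12, which retains blood cells in stroma, stood at 45.5 and 10.0 CPM. The list of 8 had 2 higher and 4 lower, but 4 passed the minimum through PM-LMSC alone. Of the 3 at 20 CPM in both libraries 1 was higher and none lower. Over all genes at 20 CPM in both libraries 5.28% were higher and 7.01% lower. Il11, a profibrotic cytokine of the IL-6 family, stood at 285 and 59.8 CPM, and Il1rl1, the receptor for IL-33, at 313 and 57.4. Osmr, the oncostatin M receptor, stood at 13.0 and 102 CPM and Il6 at 29.8 and 38.9.

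C3, the complement component the study followed, was nearly equal, at 328 CPM in PM-LMSC and 354 in M-LMSC (1.08-fold, interval 1.04 to 1.12), against 135 in A-LMSC. Of 11 complement genes 2 were higher, namely Clu (152 and 307 CPM) and Masp1, and 1 was lower, C4b. Parts of IL-4 and IL-13 signalling, upstream of Stat6, were mostly within 2-fold, with Il4ra at 233 and 182 CPM and Stat6 at 113 and 104. The exceptions among 10 members were Il13ra1 at 3.12 and 22.7 CPM, the kinase Jak2 at 21.3 and 45.7, and Cish, a feedback inhibitor of cytokine signalling, with a log2 ratio of -1.61. Within the NF-kB list 13 of 15 genes lay within 2-fold, and the higher ones were Ptgs2 (COX-2, 116 and 611 CPM) and Icam1 (36.5 and 94.6 CPM).

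Interferon response genes were higher in 10 of 29 members and lower in 1, with a median of 0.39. Of the 10, 8 passed the minimum through M-LMSC alone, and among the 20 members at 20 CPM in both libraries 2 were higher, Ifit3 and Ddx58. The 10 were Parp14, Ifit2, Eif2ak2, Ifit1, Rtp4, Ifi44, Ifit3, Dtx3l, Ddx58 and Irf1, led by Parp14 at 1.80 and 23.8 CPM and with Ifit1, which binds viral RNA, at 19.1 and 100. The abundant members Isg15, Bst2 and Ifitm3 stayed within 2-fold. Among growth factors Hbegf, an EGF receptor ligand, stood at 252 and 41.8 CPM and Vegfa, which drives vessel growth, at 436 and 120, against Fgf10 at 20.3 and 90.4 and Kitl at 5.39 and 43.9. Grem1, a BMP antagonist of stroma, stood at 237 and 1188 CPM and Ctgf, a YAP and TGF-beta target, at 3593 and 1019. In a list of YAP, TAZ, their TEAD partners and their targets, none of 20 members was higher and 5 were lower.

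**Figure D3:**
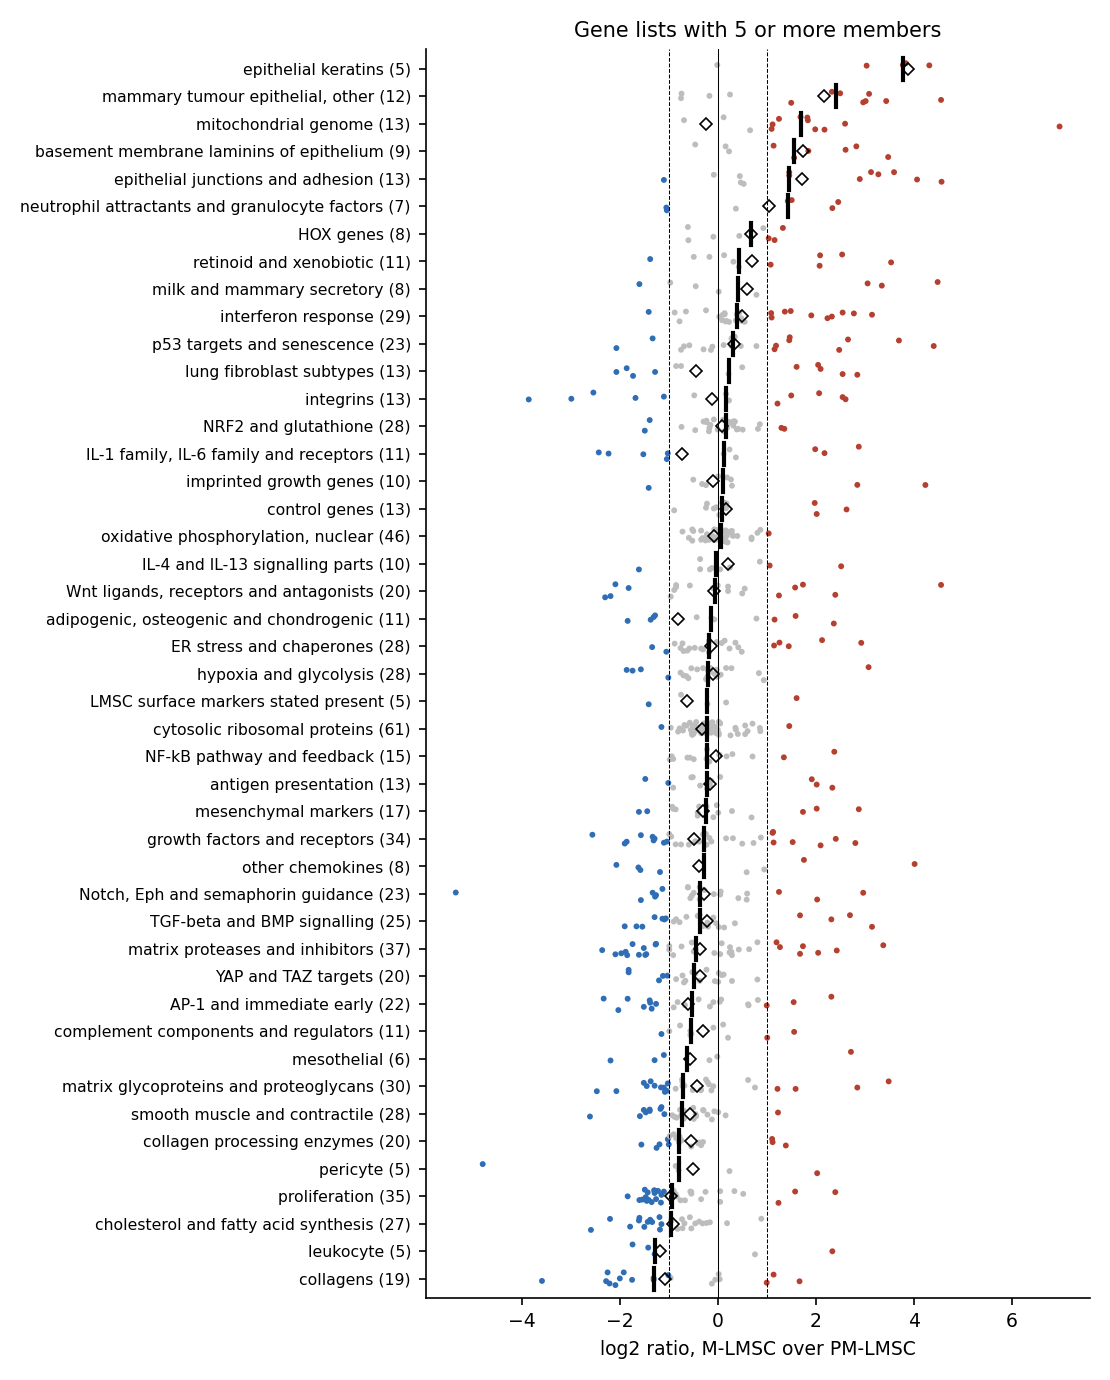
Each row is a gene list with its number of members, each point the log2 ratio (M-LMSC over PM-LMSC) of 1 member (red 2-fold or more higher, blue lower, grey within), the thick bar the list median and the open diamond the median after a trend with GC content and length was subtracted. Among the lists shown, which have 5 or more members, keratins have the highest median (3.78) and collagens the lowest (-1.31). Of the 5 keratins, 3 passed the minimum through M-LMSC alone. The diamond of the mitochondrial genome lies at -0.24 although its bar is at 1.69.

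The base composition of the transcripts moved with the ratio. Across 7241 protein-coding genes the ratio declined with GC content (Spearman rho -0.36 across genes, which are not independent replicates and share both libraries), while rho was 0.03 with transcript length and -0.24 with mean level. These genes were split into 5 groups of equal size by GC content. In the lowest group (31.9% GC upward), 612 genes (42.2%) were 2-fold or more higher in M-LMSC and 32 (2.21%) lower. In the group from 52.3% to 55.8% GC, 42 (2.9%) were higher and 188 (13.0%) lower. The named genes Pik3c2a, Tmtc3, Usp9x, Mbnl1 and Rlf, large genes of varied function with 5 to 15 counts in PM-LMSC and 463 to 1127 in M-LMSC, had GC contents of 38.6% to 41.6%. Among the pairs of stages this one has the weakest trend with GC content, so differences from A-LMSC carry a stronger one. The part of this trend in any single difference was not tested.

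Lists differed in how they stood to the trend. When it was subtracted, 633 genes were higher and 683 lower, of which 579 and 480 had been so before. Keratins, junctions and kallikreins have high or middling GC content, and their medians went from 3.78 to 3.88, from 1.46 to 1.72 and from 4.49 to 4.57. Collagens went from -1.31 to -1.08, cholesterol genes from -0.95 to -0.92 and proliferation genes from -0.93 to -0.95. The low-GC proliferins went from a median of 3.82 to 2.75, and Prl2c3 from 6.11 to 4.71. For Cxcl5, the ratio went from 2.46 to 1.41, for Ccl7 from 1.76 to 0.78, for Vcan from 3.49 to 2.78 and for Ccng1 from 3.70 to 2.70.

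**Figure D4:**
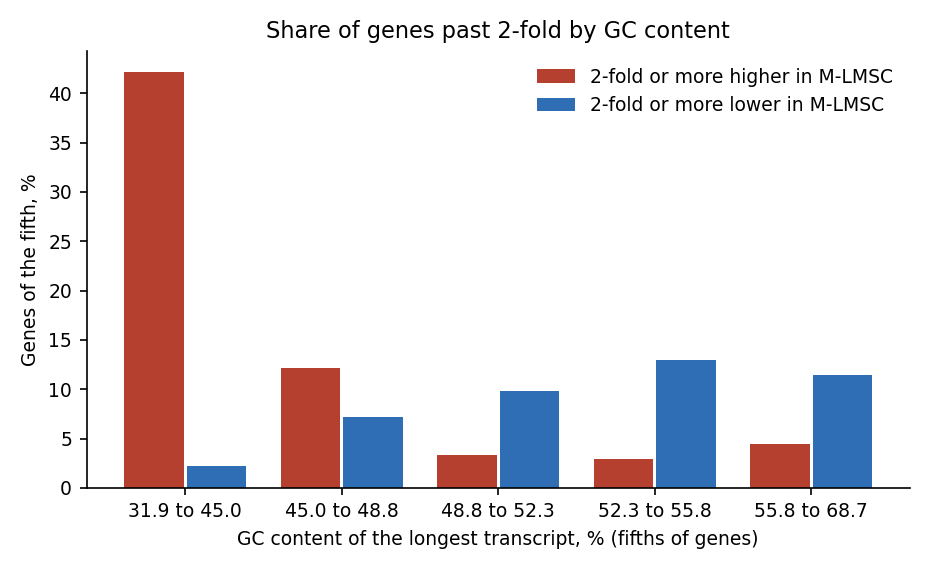
Bars give the percentage of protein-coding genes in each of 5 groups by transcript GC content that were 2-fold or more higher (red) or lower (blue) in M-LMSC than in PM-LMSC. The share of higher genes is 42.2% in the group of lowest GC content and 4.49% in the highest.

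Transcripts of the mitochondrial genome, which encodes core subunits of the respiratory chain, took 0.535% of the counts in PM-LMSC and 1.8% in M-LMSC, against 1.02% in A-LMSC. Of its 13 protein genes 10 were at least 2-fold higher and none lower, such as mt-Co1 at 1721 and 5543 CPM and mt-Nd4 at 153 and 937. Their median of 1.69 turned to -0.24 with the trend subtracted, and these genes have a median GC content of 37.1%. mt-Atp6 had 2324 counts in M-LMSC, 1 in PM-LMSC and 4886 in A-LMSC, the largest ratio of all, but it overlaps mt-Atp8 (1786 and 5163 counts in PM-LMSC and M-LMSC), so reads of both cannot be assigned with certainty. The nuclear genes of the same respiratory complexes were level, with 45 of 46 within 2-fold and a median of 0.06, which was -0.07 with the trend subtracted.

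Near-identical copies limited other extreme values too. The ferritin copy Ftl2-ps had 6840 counts in PM-LMSC and 12 in M-LMSC, and 54.3% of its 50-base windows also occur in Ftl1, which was 1302 and 2304 CPM. Summed, the copies had 1836 CPM in PM-LMSC and 2305 in M-LMSC, and their ratio was 0.33 (log2). The histone gene Hist2h2aa1 had 404 counts in M-LMSC, 0 in PM-LMSC and 701 in A-LMSC, at least 100-fold higher in M-LMSC against the floor of 3 counts. It shares 89.2% of its windows with Hist2h2aa2, which had 41 and 81 counts.

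Commonly used control genes were not uniform either. Actb stood at 3983 and 2156 CPM, Gapdh at 251 and 212 and Eef1a1 at 7115 and 8019, whereas B2m (199 and 811 CPM), Hprt (20.2 and 82.7 CPM) and Tfrc (10.3 and 69.1 CPM) were at least 2-fold higher. Of 61 cytosolic ribosomal protein genes 59 lay within 2-fold, with a median of -0.22 that became 0.04 with library totals and 0.02 with FPKM. Glycolytic enzymes such as Pkm (4830 and 4803 CPM) and Ldha were within 2-fold, but Slc2a1, the basal glucose transporter, stood at 1033 and 308 CPM and Hif1a, the oxygen-regulated transcription factor, at 26.4 and 231. Chromosome medians of the log2 ratio ran from -0.20 on chromosome 5 to 0.07 on X, where 27.3% of 194 genes were higher, and with the trend subtracted the X chromosome stood at -0.06.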

How the data were processed

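RNA-seq libraries of total RNA (1 per stage) were analysed. Reads were aligned by the authors with TopHat2 2.0.9 to mm10 per the submitters' notes. How genes were counted, with which annotation and strand setting, is not given in the sources used here, so overlapping and antisense genes are uncertain. Per gene, the authors deposited raw counts, and FPKM values scaled by length and library total alone. Of 34748 lines, 6 incomplete ones were left out. The 27 date-like symbols were replaced by GENCODE gene names, and 65 shared or empty symbols by gene identifiers.

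Deposited counts were turned into CPM with TMM factors over 3 libraries (edgeR 4.0.16, R 4.3.3), and ratios taken as log2(CPM + 1). No test could be run on single libraries. A difference is given where the ratio reached 2-fold. Intervals are exact 95% binomial intervals of the CPM ratio given the summed counts, without a pseudocount. Gene types, GC content and length are those of GENCODE M21 (longest transcript), and start sites those of RefSeq GRCm38.p6, which matched 5856 of the 7371 genes (79.4%). A lowess trend (span 0.3) with GC content and then length was subtracted as an alternative. Others were median-of-ratios (DESeq2 1.42.0), upper-quartile and 2-library TMM scaling, library totals, deposited FPKM, pseudocounts of 0.1 and 5, minima of 1, 5 and 50 CPM, 20 CPM in both libraries, no minimum and protein-coding genes alone. The procedure was tested on simulated data.

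Named genes were the 20 highest and 20 lowest ratios (unnamed models, pseudogenes and small RNAs passed over), the 5 most abundant of each library, C3, Xist, Actb and Gapdh, and members of 52 gene lists, largest ratios first. A few abundant or near-level list members, and Ftl2-ps, Hist2h2aa2 and epithelial regulators under the minimum, were named after their values were seen. Values of a few single genes that meet this rule are not reported here. The compared genes and lists were chosen with earlier results of these data known. The tools were statsmodels 0.14.6, scipy 1.17.1, pandas 2.3.3 and numpy 2.4.6 in Python 3.11.15, with plots by matplotlib 3.10.9.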

Additional observations from a re-analysis of the deposited data

Results flagged for a closer look

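A-LMSC, which entered the comparison only through the scaling factors, held 749 genes with at least 20 CPM that stayed under 20 CPM in both PM-LMSC and M-LMSC, a signal in data that the comparison does not use. Of these 715 were protein-coding with a symbol. The count depends on where the minimum is set, and its share of the genes that reached 20 CPM in A-LMSC was not computed. None of the 749 genes was at 3 counts or fewer in both later libraries, so they were not absent from both. Some lay just under the minimum, such as Il3ra, with 19.1 and 19.3 CPM at the later stages against 81.1 in A-LMSC. Examples were Pcdhga3 (138 CPM in A-LMSC, 19.3 in PM-LMSC, 2.55 in M-LMSC), Cygb (cytoglobin, an oxygen-binding globin of fibroblasts) at 89.3, 13.6 and 1.80, and Sftpc at 87.8, 0 and 1.68. Pcdhga3 belongs to the protocadherin cluster with shared 3′ exons, so its reads could have been assigned to another member. No cause was tested, and with 1 library per stage the difference had no replicate check.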

How the results depend on the processing

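No paired analysis was possible because each stage had 1 library, and for the same reason no library could be left out. The 961 higher and 649 lower genes (59.7% of them higher) became 1361 and 409 (76.9%) with library totals and 1004 and 304 (76.8%) with the deposited FPKM. They became 2285 and 1035 (68.8%) at a minimum of 1 CPM or none, 1792 and 890 (66.8%) at 5 CPM, 422 and 433 (49.4%) at 50 CPM, 304 and 404 (42.9%) at 20 CPM in both libraries, and 633 and 683 (48.1%) with the GC and length trend subtracted. Median-of-ratios, upper-quartile and 2-library TMM scaling, other pseudocounts and protein-coding genes alone kept both counts within 1.5 times. Library totals and FPKM moved the medians of hypoxia and glycolysis (-0.20) to 0.04, of NRF2 and glutathione (0.16) to 0.4 and 0.39, of ribosomal proteins (-0.22) to 0.04 and 0.02, and of nuclear oxidative phosphorylation (0.06) to 0.30 and 0.29. Subtracting the trend gave -0.32 for ribosomal proteins, -0.07 for oxidative phosphorylation and -0.24 for the mitochondrial genome (1.69). It also turned the log2 ratios of Fgf7 to -0.33, Ereg to -0.13, Cox7b to -0.07, mt-Nd2 to -0.24, mt-Nd5 to -0.46, mt-Co3 to -0.53 and mt-Atp8 to -1.79. At 20 CPM in both libraries the median of other mammary tumour epithelial genes was -0.17 (2.42). The cause was not tested where only scaling or the trend differed. Depth limits genes near the floor of 3 counts, whose ratios carry wide intervals.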

Other observations

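Other signalling lists held genes on both sides, and their values are given with no explanation. Over all compared genes 13.0% were higher and 8.8% lower, or 5.28% and 7.01% at 20 CPM in both libraries. Among 20 Wnt ligands, receptors and antagonists, M-LMSC had 5 higher by 2-fold or more and 4 lower. Of the 14 at 20 CPM in both libraries 2 were higher and 1 lower. The receptor Fzd1 stood at 272 CPM in PM-LMSC and 54.7 in M-LMSC and the antagonist Dkk2 at 5.16 and 31.5. Among 25 genes of TGF-beta and BMP signalling, 4 were higher and 7 lower. Of the 20 at 20 CPM in both libraries 1 was higher and 5 lower. The ligand Tgfb3 stood at 360 and 123 CPM and the activin antagonist Fst at 161 and 50, while the BMP receptor genes Bmpr1a and Bmpr2 had log2 ratios of 3.15 and 2.70, with 5.47 and 5.39 CPM in PM-LMSC. Of 28 chaperone and endoplasmic reticulum stress genes, 5 were higher and 2 lower, or 3 and 2 of the 26 at 20 CPM in both libraries. The cytosolic chaperone Hsp90aa1 stood at 42.4 and 330 CPM and its endoplasmic reticulum relative Hsp90b1 at 191 and 840, whereas Hspa5 (BiP) stood at 760 and 672.

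Of 11 retinoid and xenobiotic genes 5 were higher and 1 lower, but 3 passed the minimum through M-LMSC alone. Of the 8 at 20 CPM in both libraries 2 were higher and 1 lower. Rarb, a retinoic acid receptor, stood at 2.19 and 36.2 CPM and Cyp1b1, an oxidising enzyme induced through the aryl hydrocarbon receptor, at 124 and 527. In antigen presentation 3 of 13 genes were higher and 2 lower, or 2 and 1 of the 11 at 20 CPM in both libraries. The shared light chain B2m stood at 199 and 811 CPM and the immunoproteasome subunit Psmb8 at 51 and 18. Peg3, an imprinted zinc finger gene, had 39 counts in PM-LMSC and 1305 in M-LMSC, while the imprinted RNA Meg3 stood at 126 and 47 CPM. All these values have 1 library behind each stage.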
